A study of Mus musculus with 2 samples.

Results

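The named small nucleolar RNA (snoRNA) and small Cajal body RNA (scaRNA) genes were described in hippocampal total RNA of the mouse. The set comprised all genes whose symbol begins with Snord, Snora or Scarna followed by a digit, and it held 150 of the 55536 annotated genes. Of these, 99 were C/D box genes (Snord), 42 were H/ACA box genes (Snora) and 9 were scaRNA genes (Scarna). The 150 entries carried 147 symbols, because Snora43, Snord80 and Snora16a each had 2 entries. Tissue came from female mice aged 14 days of the strain B6CASTF1/J, the F1 hybrid of the C57BL/6J and CAST/EiJ strains, with no treatment named. The study held 1 group of 2 libraries, replicate 1 and replicate 2, each listing 3 females with different mouse numbers and made from 300 ng of RNA depleted of ribosomal RNA. How their material was combined (not given in the sources used here) is unknown, and both libraries carry the same donor identifier. The source is labelled as a layer of the hippocampus, without naming the layer. With 1 group no conditions were compared and no p-value is given. The spread between the libraries may be technical.

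SnoRNAs are short stable RNAs of the nucleolus that direct chemical modification of other RNAs by base pairing. C/D box RNAs carry a C box near the 5′ end and a D box near the 3′ end, bind fibrillarin and guide 2′-O-methylation, chiefly of ribosomal RNA. H/ACA box RNAs fold into hairpins joined by an H box and followed by an ACA box, bind dyskerin and guide the conversion of uridine to pseudouridine. ScaRNAs are of either type or both, reside in Cajal bodies and guide modification of spliceosomal small nuclear RNAs. Most vertebrate snoRNAs are cut out of the introns of host genes, many of which encode ribosomal proteins or have no known product besides the snoRNAs. A few snoRNAs, such as U3, U8, U17 and U22, act in the cutting of the ribosomal RNA precursor.

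The sequences below show some of the members with the most counts, the longest C/D box members with counts, and the repeated Snord116 gene, for which no count was listed. Those of Snora74a and Scarna6, with more counts than some shown, are not given. Of Scarna2, with 414 bases, and Scarna10, with 325, the ends with boxes are given. All sequences are GENCODE M21 transcripts of the mm10 assembly, written 5′ to 3′. Capitals mark a C box (TGATGA, searched in the first 25 bases), a D box (CTGA, searched in the last 15 bases) or an ACA box ending 3 bases before the 3′ end, on the sense strand. Scarna2 lies at chr3:108554338-108554751 on the minus strand, outside any gene of the same strand, and a D box was found at its end. Scarna10, at chr6:125186359-125186683 on the minus strand, overlaps an exon of Ncapd2 in part and has a C box and a D box at its ends. Scarna13, at chr12:105031075-105031349 on the minus strand, lies in an intron of Snhg10 and ends in an ACA box.
Scarna2, last 120 bases: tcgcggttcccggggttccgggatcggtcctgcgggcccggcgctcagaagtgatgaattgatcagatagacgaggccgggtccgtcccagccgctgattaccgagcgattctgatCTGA
Scarna10, first 120 bases: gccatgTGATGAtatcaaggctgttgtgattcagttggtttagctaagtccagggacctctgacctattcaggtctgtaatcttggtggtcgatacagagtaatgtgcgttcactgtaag
Scarna10, last 120 bases: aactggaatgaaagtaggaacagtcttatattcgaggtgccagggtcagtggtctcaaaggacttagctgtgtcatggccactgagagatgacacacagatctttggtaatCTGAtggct
Scarna13: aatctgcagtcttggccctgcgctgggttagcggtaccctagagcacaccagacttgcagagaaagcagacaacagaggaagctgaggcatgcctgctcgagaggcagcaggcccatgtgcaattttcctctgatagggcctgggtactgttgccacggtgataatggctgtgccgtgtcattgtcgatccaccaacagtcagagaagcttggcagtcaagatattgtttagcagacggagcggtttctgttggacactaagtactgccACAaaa

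The Snora73 pair is shown because the copies are nearly alike, which bears on how reads can be assigned to each. Snora73a (chr4:132352775-132352979) and Snora73b (chr4:132352322-132352526), on the minus strand in Snhg3, matched in 198 of 205 aligned columns, an identity of 96.6%. The Snord15 pair and Snord17 are shown as the longest C/D box members with counts. Snord15a (chr7:99482785-99482932) lies in an intron and Snord15b (chr7:99479563-99479707) inside an annotated exon of Rps3, both on the minus strand, and their identity was 66%. Snord17 (chr2:144265979-144266216, minus strand) lies in an intron of Snx5. Snord116l1 (chr7:59894620-59894713, minus strand) stands for the 17 copies named Snord116 in Snhg14, 14 of which have this same sequence.
Snora73a: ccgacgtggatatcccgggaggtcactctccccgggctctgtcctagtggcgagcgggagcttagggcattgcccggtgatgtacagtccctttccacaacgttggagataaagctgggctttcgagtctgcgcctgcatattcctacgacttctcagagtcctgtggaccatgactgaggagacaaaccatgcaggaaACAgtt
Snora73b: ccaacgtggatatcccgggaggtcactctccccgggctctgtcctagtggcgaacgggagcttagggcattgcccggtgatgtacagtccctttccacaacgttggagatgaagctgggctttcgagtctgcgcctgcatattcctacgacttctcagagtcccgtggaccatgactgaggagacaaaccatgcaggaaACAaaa
Snord15a: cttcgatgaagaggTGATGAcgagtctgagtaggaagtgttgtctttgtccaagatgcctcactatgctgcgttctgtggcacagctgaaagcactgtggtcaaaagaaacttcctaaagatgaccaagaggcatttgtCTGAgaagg
Snord15b: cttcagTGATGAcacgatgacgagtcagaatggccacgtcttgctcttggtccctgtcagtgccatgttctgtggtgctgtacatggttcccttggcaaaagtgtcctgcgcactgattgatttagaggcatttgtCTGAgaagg
Snord17: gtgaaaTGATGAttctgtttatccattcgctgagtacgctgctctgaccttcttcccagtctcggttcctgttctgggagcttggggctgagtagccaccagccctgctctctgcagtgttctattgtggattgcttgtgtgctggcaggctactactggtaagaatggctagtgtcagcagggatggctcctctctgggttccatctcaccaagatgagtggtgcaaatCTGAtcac
Snord116l1: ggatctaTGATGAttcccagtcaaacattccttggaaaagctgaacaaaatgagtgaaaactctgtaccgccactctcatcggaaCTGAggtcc

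The names were checked against the boxes. A C box was found in 70 of the 99 C/D box members, a D box in 92, and both in 68 (68.7%). Both were found in 4 of 4929 (0.0812%) other annotated transcripts of 64 to 238 bases that are not snoRNA, scaRNA or snRNA. An ACA box ended 35 of the 42 H/ACA members (83.3%), against 2.25% of those other transcripts. An H box (ANANNA, searched in the central part of the transcript) stood beside it in 33 (78.6%), against 0.994%. Of the 9 scaRNAs, 4 had both a C and a D box and 2 ended in an ACA box. Annotated gene types differed from the names in a few entries: Snord43 is annotated as a miRNA, and Scarna10 and Scarna9 as snoRNA.

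Length limited which members could be given reads. In the first quantification, made from alignments to the transcriptome, every entry's effective length was its annotated length minus 99 bases. Entries of up to 99 bases therefore had an effective length of 0, and the 2398 annotated genes of that size held 0 counts together in each library. This class took in 89 of the 150 members (59.3%), namely 87 of 99 C/D box genes, 0 of 42 H/ACA genes and 2 of 9 scaRNAs (Scarna9 and Scarna17). Median annotated lengths were 84 bases for C/D box genes, 132.5 for H/ACA genes and 140 for scaRNAs. A listed 0 for these 89 genes is no measurement of expression, and they are described here by sequence, place and host.

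Of the 61 members over 99 bases, 14 (23%) had at least 10 expected counts in both libraries. The same floor was met by 32.2% of all annotated genes, by 33.7% of those over 99 bases, and by 2.6% of those of 100 to 414 bases, the range of these members. The 14 were 4 C/D box genes, 6 H/ACA genes and 4 scaRNAs. A further 20 members over 99 bases were listed at 0 in both libraries: 6 C/D box genes, 13 H/ACA genes and Scarna8. A count of 0 allows up to 3 counts, which for 19 of the 20 corresponds to between 1.66 and 14.6 TPM in replicate 1, and for Snord13, with 104 bases, to 26.2 TPM. This limit covers only reads assigned to the member. Some of the 20, such as Snora52 and Snora81, lie wholly inside a host exon, so a 0 for them does not bound their level. The same holds for Snora19, whose words all occur in the annotated gene Gm23658. It also holds for the Snora43 entry at 0, whose words all occur in the other Snora43 entry, with 8 and 3 counts. The remaining 27 had at least a fraction of a count in 1 library, and all but Scarna3a, Scarna3b, Snord89 and Snord118 were H/ACA members.

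Longer members were counted more often. Among members of 120 to 139 bases 3 of 38 reached the floor, among those of 140 to 199 bases 4 of 9, and all 5 of 200 to 299 bases and both longer ones did. Snord89, with 110 bases, was the shortest member with any count, 1 in replicate 1 and 0 in replicate 2. Its host Gm15832 had 28.17 and 42.15 counts. Other annotated genes that are not snoRNA or scaRNA reached the floor in 2.13% of 2069 entries at 200 to 299 bases.

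**Figure D1:**
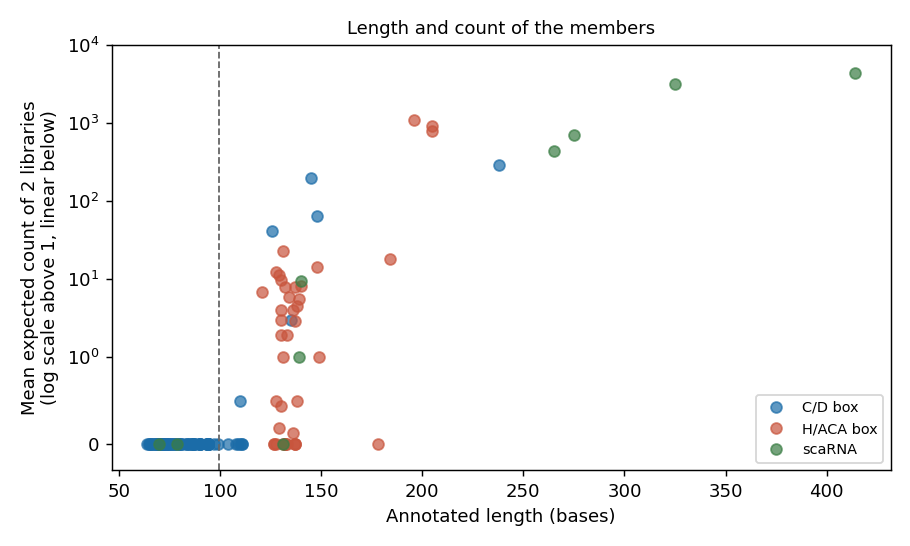
Annotated length in bases (x axis) and mean expected count of the 2 libraries (y axis, log scale above 1 and linear below) for the 150 members, coloured by class; the dashed line marks 99 bases. All 89 members left of the line are at 0, and the scaRNAs Scarna2 and Scarna10 lie highest at the right.

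Together the members held 11637 and 12613 expected counts in replicates 1 and 2, or 0.0349% and 0.0385% of the counts of annotated genes (mean 0.0367% ± 0.00255, SD, n = 2). ScaRNAs took the largest share of these, 0.026% ± 0.00162 of gene counts, against 0.00893% ± 0.000727 for H/ACA genes and 0.00179% ± 0.000196 for C/D box genes. The scaRNA share exceeded the others in each library by more than its SD. Counts were concentrated in few genes: Scarna2 and Scarna10 held 62.1% and 60.8% of member counts, and the top 8 members 96.4% and 95.8%. Because 87 C/D box genes and 2 scaRNAs could take no counts, the order of the classes describes what was counted and not the amount of each class in the tissue.

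Scarna2, whose human relative guides methylation of U2 small nuclear RNA, led with 4257 and 4452 expected counts. These correspond to 590.9 and 621.6 TPM, the deposited level per base of effective length scaled to a common total. None of its 31-base words occurs in another annotated gene, and it has no host, so its reads are not shared with an overlapping transcript in the annotation. It was the one member with more than 1 count in the second quantification, made from the reads themselves, with 1136 and 1230 estimated counts.

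Scarna10, known in human and fly as U85, a composite C/D and H/ACA guide of U5 small nuclear RNA, followed with 2963 and 3218 counts, or 573.3 and 626.2 TPM. Of its words, 85.1% also occur in Gm28967, an annotated gene at the same place with 0 counts in both libraries. Its host Ncapd2, a condensin subunit gene, had 677.5 and 639.5 counts over a transcript several times longer. The second quantification gave Scarna10 1 and 0 estimated counts.

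Scarna13, the mouse counterpart of human U93, a tandem H/ACA RNA, had 646 and 753 counts, against 62 and 60 for its host Snhg10. Scarna6, the counterpart of human U88, had 406 and 454 counts in an intron of Atg16l1, an autophagy gene with 1313 and 1273 counts. Scarna3a was far lower at 7 and 12 counts. Its relative Scarna3b, with an identity of 85.7%, had 2 and 0 counts. The 4 highest scaRNAs, ranked on these same counts, lay between 406 and 4452 counts in every library.

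Among H/ACA members, Snora74a, known as U19, had 1095 and 1091 counts, or 493.8 and 494.8 TPM. Its whole sequence lies inside an exon of AC121821.1 on chromosome 18, which had 187.7 and 213.2 counts. The second quantification gave AC121821.1 1474 and 1461 estimated counts and Snora74a 0. The part of their shared sequence in this difference was not tested. Snora73b and Snora73a, the U17 RNAs of early ribosomal RNA precursor cleavage, had 855.1 and 968.1 counts and 721.2 and 854 counts. As the copies are 96.6% identical, 85.1% of the words of Snora73a are shared with other genes and a gene lies on the opposite strand, the split between them is uncertain.

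The other H/ACA members were much lower. Snora23, in an intron of Ipo7, had 23 and 13 counts, and Snora78, in an intron of Snhg9, had 12 and 13. Snora57 had 7 and 22 counts and did not reach the floor in replicate 1. These low members differed in direction, Snora23 being higher in replicate 1 and Snora57 in replicate 2. Snora44 and Snora61, both inside exons of Snhg12, had 6.73 and 16.19 and 7.02 and 12.35 counts, and Snora7a, inside an exon of Rpl32, had 5.68 and 10.49.

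Among C/D box members, Snord17, a guide of 28S ribosomal RNA, had 275 and 296 counts, or 86.5 and 93.66 TPM, with no shared words. Snord15b, one of the U15 RNAs that guide methylation of 28S ribosomal RNA, had 172.3 and 219.3 counts, all of its words being shared with its host Rps3. Snord15a, with no shared words, had 63 and 65 counts. Snord22, the U22 RNA of 18S processing, had 35.1 and 47.17 counts and lies wholly inside an annotated exon of Snhg1. These 4 were the C/D box members over the floor, and Snord118 (U8), needed for processing of 5.8S and 28S ribosomal RNA, had 3 and 3 counts.

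**Figure D2:**
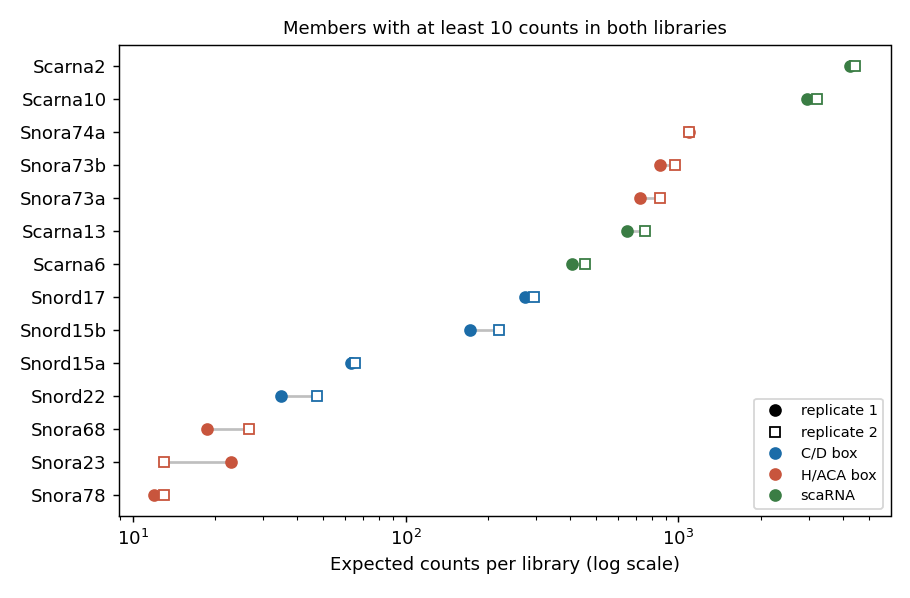
Expected counts (x axis, log scale) in replicate 1 (filled circles) and replicate 2 (open squares) of the 14 members with at least 10 counts in both libraries, coloured by class. Scarna2 leads with 4257 and 4452 counts; Snora23, with 23 and 13, and Snora74a, with 1095 and 1091, are the 2 members higher in replicate 1.

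TPM of short entries depends on the length it is divided by. Snord15b had 163.7 and 209.7 TPM against 86.5 and 93.66 for Snord17, although Snord17 had more counts, since subtraction of 99 bases left Snord15b an effective length of 46 bases and Snord17 one of 139. Divided by annotated length on the same scale, Snord15b averaged 72.2 and Snord17 64.1. Snord22 averaged 17.5 on that scale, against a mean of 66.8 TPM ± 14.1 (SD, n = 2) as deposited. Snora73b averaged 238 and Scarna2 562 in place of 377 and 606 TPM.

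The second quantification lost short genes more widely. Its annotated lengths exceeded its effective lengths by 343.1 and 346.1 bases. Among genes with 1 transcript and at least 50 summed expected counts, estimated counts were under 1% of expected counts in all 58 genes of 100 to 199 bases, in all 46 of 200 to 299 bases, and in 29 of 31 genes of 300 to 343 bases. The number was 38 of 83 at 344 to 449 bases and 2 of 1801 from 2000 bases upward. Scarna2, with 414 bases, was the one member longer than that difference. No C/D box or H/ACA member had an estimated count in it.

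**Figure D3:**
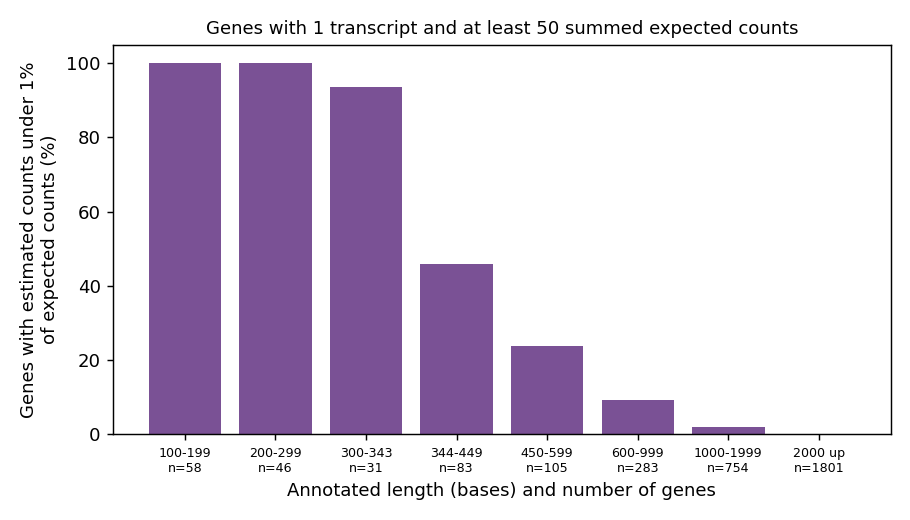
Percent of genes (y axis) whose estimated counts of the second quantification were under 1% of the expected counts of the first, by annotated length (x axis, bases), for genes with 1 transcript and at least 50 summed expected counts. The bars fall from 100% at 100 to 299 bases to 45.8% at 344 to 449 bases.

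The genomic setting of the members was that of host-borne snoRNAs. Of the 150, 141 lay within a gene of the same strand and 9 did not: Scarna2, Scarna17, Snora17, Snora57, both Snora43 entries, Snord13, Snord104 and Snord118. Ribosomal protein genes hosted 33 members, of which 19 were up to 99 bases, and genes named Snhg hosted 33. Gas5, a noncoding gene known as a snoRNA host, held Snord47, Snord78 and both Snord80 entries and had 1344 and 1341 counts. Rpl13a, with 4310 and 4048 counts, held Snord32a, Snord33, Snord34 and Snord35a. Hspa8, which encodes a constitutive heat shock protein and hosts the U14 genes Snord14c, Snord14d and Snord14e, had 38682 and 29358 counts. These U14 genes of 86 to 90 bases, whose yeast and vertebrate relatives act in 18S formation, were listed at 0.

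Member and host were compared per base of the gene length listed with the counts. For hosts with several transcripts this length is not fixed by the annotation and can differ between libraries. Ncapd2, with 677.5 and 639.5 counts, had 256 and 268 counts per kb in replicates 1 and 2. The comparison took in the 54 members over 99 bases with a host, which had 48 hosts among them. Of these, 27 lay in introns, 21 inside an annotated exon and 6 partly in an exon. All 21 exonic members shared all of their words with another gene, and how reads were divided between member and host was not tested. In both libraries 9 members stood above the host. Scarna10 was 35.6 and 36.9 times its host, Snora74a 35.1 and 29.9 times, Scarna13 16.9 and 21 times, Snora73b 15.8 and 22.8 times, and Snora73a 13.3 and 20.2 times. Scarna6 was 2.98 and 3.36 times its host, Snora78 2.14 and 2.32, Snord17 1.84 and 2.13, and Snord22 1.25 and 1.6. Of these, Scarna6, Snord17 and Snora78 lie in introns and share no words with other genes, although Snora78 has a gene on the opposite strand. Snhg9, the host of Snora78, had only 8 and 8 counts, so the Snora78 ratio rests on few counts.

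Most members with counts lay below their host. Per base of listed gene length, Snord15a was 0.173 times Rps3 in each library, and Snora31 0.00293 and 0.00291 times Tpt1. On deposited TPM, Snord15a had 56.21 and 58.34 against 115 and 120 for Rps3. Snord15b, with 163.7 and 209.7, lay above Rps3 on that scale. A host could be high with its member at 0. Tcp1 had 3829 and 3642 counts, while Snora20, an H/ACA member of 128 bases in its intron with no shared words, was listed at 0. Eif4a2 had 10054 and 9865 counts, and Snora81, its H/ACA member of 178 bases inside an exon, was also listed at 0. All words of Snora81 occur in Eif4a2, so that 0 does not bound its level. Among the 20 members over 99 bases at 0, 10 lay in introns and 6 inside exons. Snora35, a brain snoRNA in an intron of the serotonin receptor gene Htr2c, had 1 and 0 counts. Its host had 1844 and 902 counts, a log2 ratio of 0.92, and choroid plexus markers (Ttr, Folr1, Kcnj13 and Otx2) summed to 1401 and 6.12 TPM. Their part in that difference was not tested.

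**Figure D4:**
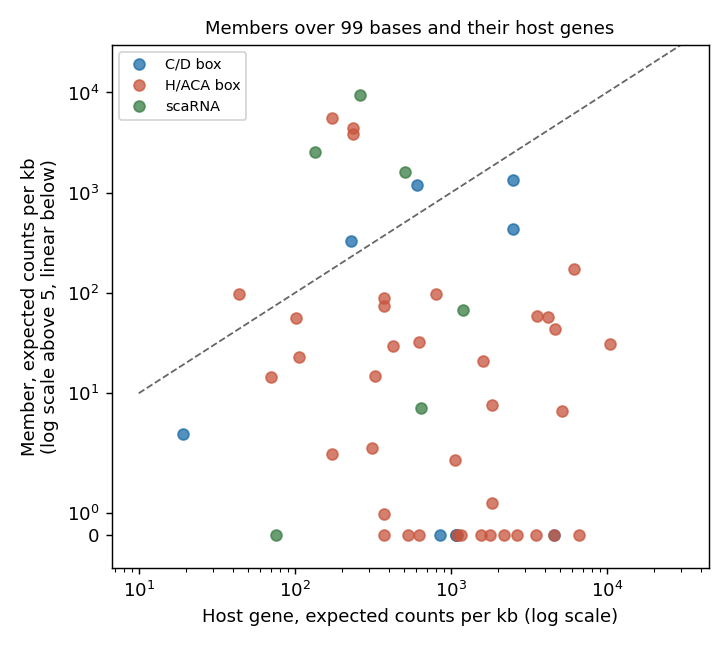
Mean expected counts per kb of listed gene length for the 54 members over 99 bases with a host. The y axis is the member (log scale above 5, linear below) and the x axis its host gene (log scale). The dashed line marks equal values. Scarna10 and Snora74a lie farthest above the line.

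The imprinted snoRNA cluster of the Prader-Willi locus was present in the annotation and not in the counts. Snord116 had 17 copies of 94 bases between 59861731 and 59904848 on chromosome 7, with 4 distinct sequences and pairwise identities of 94.7% to 100%. All 17 named copies lie within Snhg14, a long noncoding transcript of the paternal allele, which had 13337 and 13771 counts, or 540 and 578 TPM. Snord64 and Snord107, of 67 and 70 bases, lie in Gm38393, which had 1870 and 1953 counts. None of these 19 members could take counts in the first quantification, and a mature Snord116 RNA was therefore not measured. No member was named Snord115, Snord113 or Snord114. Expression by allele was not analysed here.

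The list of protein genes for snoRNA particles and their formation, chosen from known roles, had 27 members: core proteins, assembly factors, and factors of Cajal bodies, RNA export and trimming. All 27 had at least 1 TPM in both libraries, against 26.6% of all annotated genes. The core proteins of C/D box particles (Fbl, Nop56, Nop58 and Snu13) averaged 23.3 to 59.9 TPM and those of H/ACA particles (Dkc1, Nop10, Nhp2 and Gar1) 10.4 to 27.3 TPM. Fibrillarin, the methyltransferase, had 25.5 and 21.2 TPM, and dyskerin, the pseudouridine synthase, 10.4 and 10.4 TPM. The assembly factors averaged 2.24 to 19.1 TPM. Wrap53, which brings scaRNAs to Cajal bodies, had 4.13 and 3.64 TPM. Terc, the telomerase RNA, itself an H/ACA RNA outside the named set, had 3.24 and 5.57 TPM.

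The libraries were compared with each other as a measure of replicate spread. Of the members, 11 had at least 50 summed counts. All 11 were lower in replicate 1 than in replicate 2 after TMM scaling, with a median log2 ratio of replicate 1 to replicate 2 of -0.27 (-0.53 to -0.11). Over the 16135 genes at that floor 51.7% were lower in replicate 1, the median was -0.01, and the central 95% lay between -0.54 and 0.71. Each of the 11 members lay within that central range. None was 2-fold apart, against 1.52% of all genes. The ratio was 0.782 (95% exact binomial interval 0.707 to 0.864) for Snora73a, 0.886 (0.849 to 0.924) for Scarna2, 0.93 (0.854 to 1.01) for Snora74a and 0.692 (0.432 to 1.09) for Snord22. In 7 of the 11 the interval excluded 1, as it did in 36.6% of all genes at that floor and in 34.7% of genes within the members' range of summed counts. These intervals cover counting error only, and with 11 members chosen by name no test of this difference is given. Other genes also moved between these libraries. Choroid plexus markers summed to 1401 and 6.12 TPM, ependyma markers (Foxj1 and Rsph1) to 14.82 and 7.94, and meninges markers (Col1a1 and Lum) to 28.11 and 17.74. Astrocyte markers (Slc1a2, Aldoc and Aqp4) summed to 1342 and 1608. Of these 3, Slc1a2 and Aldoc were higher in replicate 2 and Aqp4 was not, with 75.6 and 69.6 TPM. The part of these marker differences in the members' ratios was not tested.

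The same ratio was taken in related sets. Of the 32 other snoRNA and scaRNA genes at that floor, 24 were lower in replicate 1, with a median of -0.12 and a range of -8.16 to 8.38, and 6 were at least 2-fold apart. Of 220 other annotated genes of 100 to 450 bases, 129 were lower, with a median of -0.05 and a range of -7.22 to 7.93, and 16 were at least 2-fold apart. Of the 27 protein genes 13 were lower, with a median of 0.00 (-0.29 to 0.30). Mitochondrial genes took 8.53% of counts in replicate 1 and 10.2% in replicate 2.

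**Figure D5:**
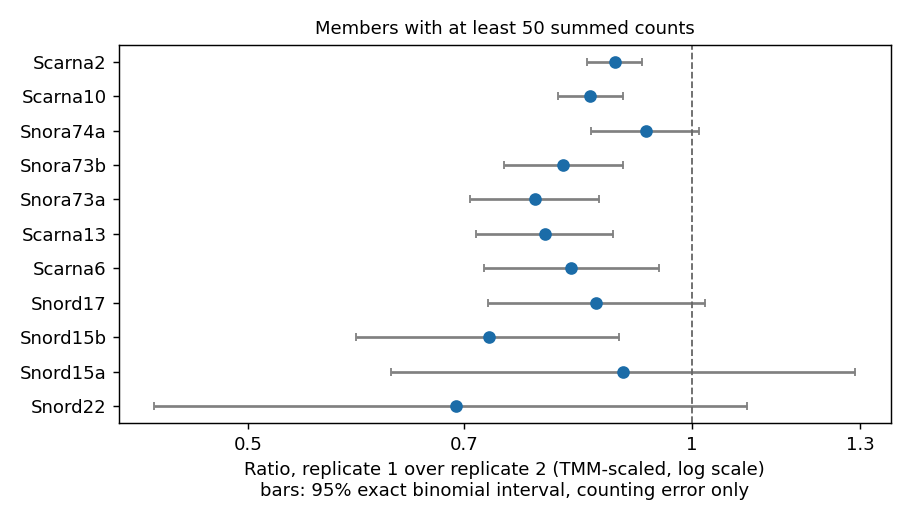
Ratio of replicate 1 to replicate 2 (x axis, log scale, TMM-scaled) for the 11 members with at least 50 summed counts; bars are 95% exact binomial intervals of counting error and the dashed line marks 1. All points lie left of 1, and 7 intervals exclude it, against 36.6% of the intervals of all genes at that floor.

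The named set is a small share of the annotated snoRNA genes. A further 1409 genes are annotated as snoRNA or scaRNA under other symbols, and they held 8260 and 7988 counts, against 11637 and 12613 for the members. Of the 1036 over 99 bases, 35 (3.38%) reached 10 counts in both libraries, against 14 of 61 (23%) among the members. The highest was Gm22009, a scaRNA gene of 343 bases, with 1715 and 1598 counts. Genes of U3, the best known RNA of ribosomal RNA precursor cleavage, stand outside the named set. Rnu3b1, Rnu3b2 and Rnu3b3 each had the same 610.2 and 577 counts. How reads were divided among these copies was not tested, so the values do not measure each gene.

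Depth was 33321573 and 32740837 expected counts on annotated genes in replicates 1 and 2. The libraries were not copies of each other, since their counts differed by a chi-square of 17.5 per gene. All 6 markers of hippocampal neurons had at least 1 TPM in both libraries, against 26.6% of all annotated genes. Their means ran from 50.4 to 1452 TPM. Markers of neighbouring regions were lower but differed within each region. Of the thalamus markers, Gbx2 averaged 0.04 TPM and Prkcd 20.3. Of the striatum markers, Drd1 averaged 1.26 TPM and Ppp1r1b 18.5.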

How the data were processed

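The data are 2 libraries of rRNA-depleted total RNA. The authors deposited gene tables of expected counts (estimated reads, not always whole) and TPM, and transcript tables of estimated counts and TPM from a second quantification, per the file headers. Both were made against mm10 and GENCODE M21, per the notes deposited with them. The layouts are those of RSEM and kallisto. The aligner, the tool versions and whether counting used strand are unknown (not given in the sources used here). The spike-in label refers to stranded libraries, and genes overlapped on the opposite strand are treated as uncertain. The deposited TPM sums over every entry, with spike-ins.

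Members were found by symbol, and split by symbol, in a script. Totals are expected counts on annotated genes; spike-ins and 26248 entries with a numeric identifier only were left out. Levels are given for both libraries, or as mean ± SD (n = 2). Ratios used expected counts rounded to whole numbers, TMM scaling (edgeR 4.0.16, R 4.3.3) with 0.5 added as prior count, for genes with at least 50 summed counts; intervals are exact binomial at 95% and cover counting error only, since reads are not independent molecules. The ratio step was tested on simulated data. The host is the shortest gene on the same strand whose span holds the member. Shared sequence is the percent of a member's 31-base words found in another annotated gene. Other software was Python 3.11.15 with pandas 2.3.3, scipy 1.17.1, Biopython 1.88 and matplotlib 3.10.9.

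The members, lists, thresholds and comparisons were chosen with earlier results of these data known. Apart from 1 H/ACA member over the floor, whose values are not reported here, named members were the highest by count and TPM in each class, the imprinted groups, the precursor-processing RNAs and the largest differences between libraries or quantifications; others named were chosen after their values were seen. Alternatives were other count floors and scalings (including DESeq2 1.42.0 size factors), the second quantification, another total, members without shared words, another host length and each library left out.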

Additional observations from a re-analysis of the deposited data

How the results depend on the processing

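The second quantification left 0 C/D box, 0 H/ACA and 1 scaRNA member at 10 counts, in place of 4, 6 and 4, and 0%, 0% and 0.00355% of gene counts. Without members sharing at least 50% of their words, 2 C/D box and 3 H/ACA members reached the floor, and 3 scaRNAs. For H/ACA members a floor of 3 counts gave 18, a floor of 50 gave 3, and leaving out 1 library gave 6 to 10, the higher number without replicate 1. With mitochondrial genes left out of the total, H/ACA members took 0.00987% and scaRNAs 0.0287%. Without the filter on summed counts, 10 members were 2-fold apart and the median log2 ratio was 0.00 over 150 members, most of them at 0 in both libraries; at 10 summed counts 3 of 24 were. The median was -0.19 with library totals and -0.26 with DESeq2 size factors. Members above their host numbered 11 with the host's longest transcript and 11 on deposited TPM, a comparison added after seeing the data, in place of 9. Members of up to 99 bases were listed at 0 in both quantifications.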
